A study of Mus musculus with 27 samples.

Results

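The genes described are the mouse interleukins and interleukin receptors on a custom glycogene array, 31 of the 573 mouse genes it measured. A gene was included when its platform symbol began with Il and a digit, and the brightest of its probe sets, by mean log2 intensity over all arrays, stood for it. The 31 genes were measured by 37 probe sets, with 6 genes having several. By symbol, 17 were ligands (Il1a, Il1b, Il1f5, Il1f6, Il2, Il3, Il4, Il5, Il7, Il10, Il12a, Il13, Il15, Il16, Il17a, Il17b and Il25) and 14 were receptor chains (Il1r1, Il2ra, Il2rb, Il3ra, Il5ra, Il6ra, Il6st, Il7r, Il9r, Il10ra, Il12rb1, Il12rb2, Il17ra and Il18rap).

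The study profiled total RNA from 9 tissues of wild-type C57BL/6 males aged 6 to 8 weeks, with 3 arrays per tissue and 27 arrays in all. The tissues were bone marrow (from femurs), lymph node, spleen and thymus, called the lymphoid tissues here, and brain, kidney, liver, lung and testis, called the organs. Whether the 3 samples of a tissue came from separate mice is not stated in the labels, so p-values measure the spread between these samples, which may be technical. The values are hybridisation intensities on a linear scale, and the number of arrays limits their precision. Array medians lay between 221.5 and 243.7, every one of the 27 arrays correlated best with an array of its own tissue, and arrays of 1 tissue correlated with r from 0.931 to 0.988.

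Interleukins are secreted signalling proteins that pass between blood cells, and between blood cells and the tissues around them. Most act through surface receptors built from several chains, of which one usually binds the ligand and another, often shared by several ligands, carries the signal. Receptor chains are typically made at rest by the cells that respond, whereas many of the ligands are made mainly on activation, in small numbers of cells.

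The array has no detection calls among the values used here, so its 839 human probe sets, hybridised to mouse RNA, served as a rough measure of non-specific signal. Their median intensity was 205.2 and their 95th percentile was 590.1, against a median of 296.8 for the mouse genes. Of the 31 genes, 22 stayed under 590.1 on every array, and 7 had at least 1 tissue in which all 3 arrays lay above it. Among all 573 mouse genes, 282 stayed under it on every array and 235 had such a tissue. The 7 interleukin genes with such a tissue were 6 of the 14 receptors (Il2rb, Il5ra, Il6st, Il7r, Il10ra and Il17ra) and 1 of the 17 ligands (Il16). Probe sets differ in brightness, so the signals of different genes are not compared as amounts. Folds are ratios of signals, and since the lowest tissue of every gene called below lay under 590.1, where part of the signal can be non-specific, they are not ratios of transcript levels.

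Il7r and Il16 have a promoter in the RefSeq table used (build GRCm38.p6), which held 21 of the 31 genes. The 250 bases before the start of each are shown because both genes were called higher in lymphoid tissues, with capitals marking a STAT-type motif (TTCNNNGAA) or an ETS-type motif (AGGAAGT, here on the opposite strand). The Il7r window is chr15:9529877-9530126 on the minus strand, and the Il16 window, the first of 3 starts listed, is chr7:83735540-83735789 on the minus strand.
Il7r: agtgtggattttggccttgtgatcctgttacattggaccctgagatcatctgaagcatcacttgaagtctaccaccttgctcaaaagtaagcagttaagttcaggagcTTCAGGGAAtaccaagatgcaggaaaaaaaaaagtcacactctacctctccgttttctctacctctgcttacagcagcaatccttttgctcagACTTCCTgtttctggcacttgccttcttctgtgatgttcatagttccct
Il16: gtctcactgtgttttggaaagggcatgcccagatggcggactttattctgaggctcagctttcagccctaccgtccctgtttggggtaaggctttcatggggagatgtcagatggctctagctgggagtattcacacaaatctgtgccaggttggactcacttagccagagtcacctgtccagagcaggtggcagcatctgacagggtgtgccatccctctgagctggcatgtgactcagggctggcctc
The Il7r window held the STAT-type match beginning 142 bases before the start and the ETS-type match beginning 49 bases before it, with no overlap. None of the 3 Il16 windows held a match to either motif, nor to a RUNX-type motif (TGTGGT), a GC box (GGGCGG) or a TATA box (TATAAA), all searched on both strands. Over 32851 promoter windows of the same length, 7.02% held the STAT-type motif, 7.69% the ETS-type, 14% the RUNX-type, 32.7% the GC box and 12.4% the TATA box. Of the 27 windows listed for the 21 genes, 3 held the STAT-type, 5 the ETS-type, 6 the RUNX-type, 6 the GC box and 5 the TATA box. A match is a description of the letters and not evidence of binding.

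The first question was which interleukins and receptors differed among the 9 tissues. A gene was called when its moderated F test (limma) had a Benjamini-Hochberg adjusted p under 0.05 over all 573 genes and its tissue means spanned at least 1 on the log2 scale. Of the 31 genes, 8 were called, which is 25.8%, against 50.1% of all mouse genes. Of the receptors 5 of 14 were called (Il7r, Il2rb, Il17ra, Il10ra and Il5ra), and of the ligands 3 of 17 (Il16, Il15 and Il1a). The median span was 0.58 over the 31 genes and 1.003 over all genes. A further 14 of the 31 genes had an adjusted p under 0.05 with a span under 1, as did 212 of all 573 genes.

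**Figure D1:**
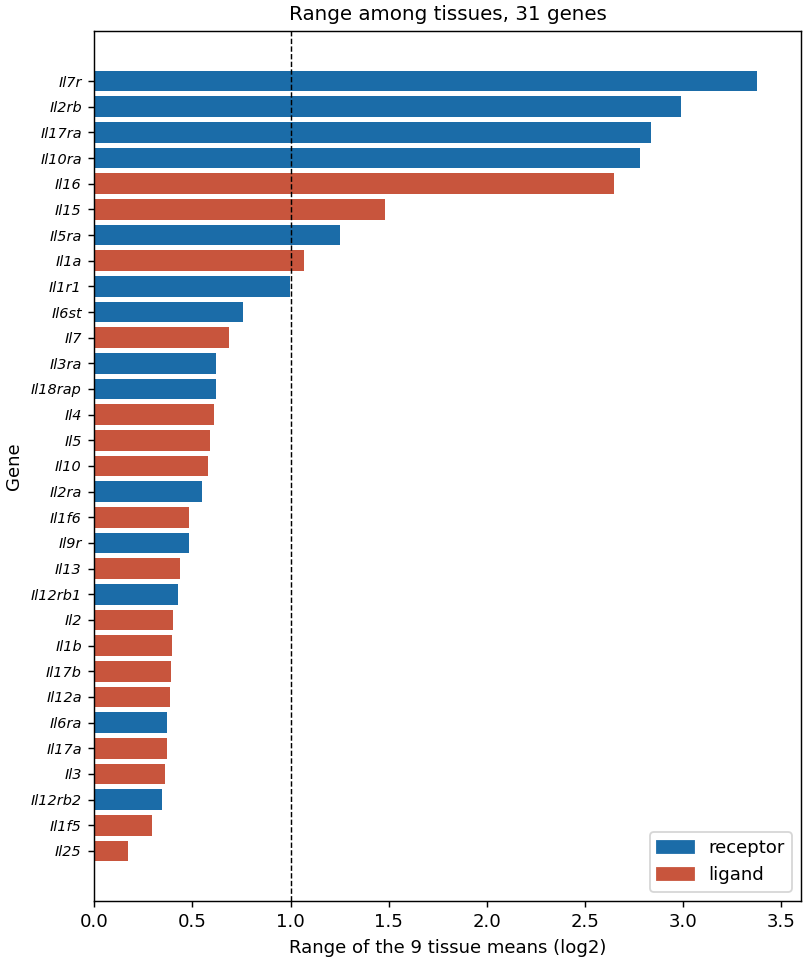
Span of the 9 tissue means on the log2 scale (horizontal axis) for each of the 31 genes, with receptors in blue and ligands in red and the dashed line at the span of 1 required for a call. Spans run from 0.17 for Il25 to 3.38 for Il7r, and the 5 widest start at 2.65 for Il16.

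Il7r encodes the alpha chain of the interleukin 7 receptor, which developing and resting lymphocytes need to survive. Its intensity was 2869.7, 2929.8 and 2347 in lymph node, 1720.3, 1196 and 1704 in spleen, 1154, 876 and 994 in thymus and 817, 682 and 734 in bone marrow. In the organs it was 354, 429.8 and 278 in lung, 278, 287 and 302 in testis, 270.1, 264 and 265 in kidney, 260.2, 255 and 274 in brain and 276, 265 and 240.2 in liver. Every lymphoid array lay above every organ array, and lymph node stood above the other 3 lymphoid tissues on every array. Lymph node (2715 ± 321, SD, n = 3) exceeded liver (260.4 ± 18.3) by 3.38 on the log2 scale, a 10.4-fold ratio of signals (limma F test, adjusted p = 7.37e-17). Down the order lymph node, spleen, thymus, bone marrow and lung, each step had an adjusted p under 0.05, and only the last, from bone marrow to lung, also reached the size for a call (2.13-fold, adjusted p = 7.46e-07). In the organ order lung, testis, kidney, brain and liver, no neighbours differed beyond their spread. Lung was above kidney (1.31-fold, limma, adjusted p = 0.0311), brain (1.32-fold, adjusted p = 0.0231) and liver (1.34-fold, adjusted p = 0.0175), all under the size for a call.

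Il2rb encodes the beta chain through which interleukins 2 and 15 signal in T cells and natural killer cells. Lymph node gave 1733, 1808 and 1730.5, spleen 1227, 1185 and 1297, bone marrow 653, 653 and 1085 and thymus 668, 577 and 658. The organs gave 318, 299 and 323 in lung, 242, 251 and 229 in kidney, 247, 235 and 228 in testis, 239.6, 215 and 251 in brain and 219, 215 and 229 in liver. The lymphoid and organ arrays did not overlap, and 1 bone marrow array stood well above the other two. The span from lymph node to liver was 2.99 on the log2 scale, or 7.95-fold (limma F test, adjusted p = 6.30e-17). Lymph node was above spleen (1.42-fold, adjusted p = 0.00654) and spleen above bone marrow (1.60-fold, adjusted p = 0.000167), while bone marrow and thymus did not differ beyond their spread (adjusted p = 0.0922). Lung was the highest organ, 1.30-fold above kidney (adjusted p = 0.0188), and the step from thymus down to lung was 2.02-fold (adjusted p = 4.71e-07).

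Il17ra encodes the widely shared receptor chain for interleukin 17 ligands. Its intensity was 924, 911 and 977 in thymus, 687, 1134 and 969.9 in bone marrow, 723, 841 and 715 in spleen and 796, 741 and 570.3 in lymph node. In the organs it was 256, 221 and 256 in kidney, 230.1, 171 and 216 in lung, 164, 156 and 189 in liver, 162, 179.8 and 161 in brain and 135, 131 and 127 in testis. The groups did not overlap, and brain, liver and testis lay under the human probe set median of 205.2 on every array. The span of the signals from thymus to testis was 2.84 (limma F test, adjusted p = 4.57e-16), and no fold is given because testis was not above the human median. Neighbours in the order did not differ beyond their spread within the lymphoid tissues or within the organs, and the one step that did was from lymph node to kidney (2.86-fold, adjusted p = 4.23e-09). Tissues further apart did differ, under the size for a call. The widest such differences were kidney over testis among the organs (0.90 on the log2 scale, limma, adjusted p = 2.17e-05) and thymus over lymph node among the lymphoid tissues (0.43, adjusted p = 0.0350).

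Il10ra encodes the ligand-binding chain of the receptor for the anti-inflammatory interleukin 10. Spleen gave 1579, 1639.7 and 1932, lymph node 946, 1103 and 1091, bone marrow 911, 982 and 1225 and thymus 608, 504 and 458. The organs gave 541, 486 and 716 in lung, 361, 368 and 392 in brain, 306, 348 and 313 in kidney, 268, 296 and 239 in liver and 258, 235 and 253 in testis. Here the groups overlapped, since lung lay across the range of thymus and the 2 tissues did not differ beyond their spread (adjusted p = 0.442). The span from spleen to testis was 2.78, or 6.88-fold (limma F test, adjusted p = 3.91e-15), and spleen was above lymph node by 1.64-fold (adjusted p = 0.000428).

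Il10ra had a second probe set on the array with another pattern. It was highest in liver, at 682, 1534 and 708 (975 ± 485), and 1 liver array stood far above the other two. It gave 801, 878 and 965 in spleen, 676, 741 and 816 in lymph node and 289, 340.4 and 361 in lung. Over the 9 tissue means the 2 probe sets correlated with r = 0.41, a description over points that share arrays. With the log2 values of both probe sets averaged, the span fell from 2.78 to 1.87 and was still called (adjusted p = 1.34e-10), with spleen still the tissue that stood above the others by most.

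**Figure D2:**
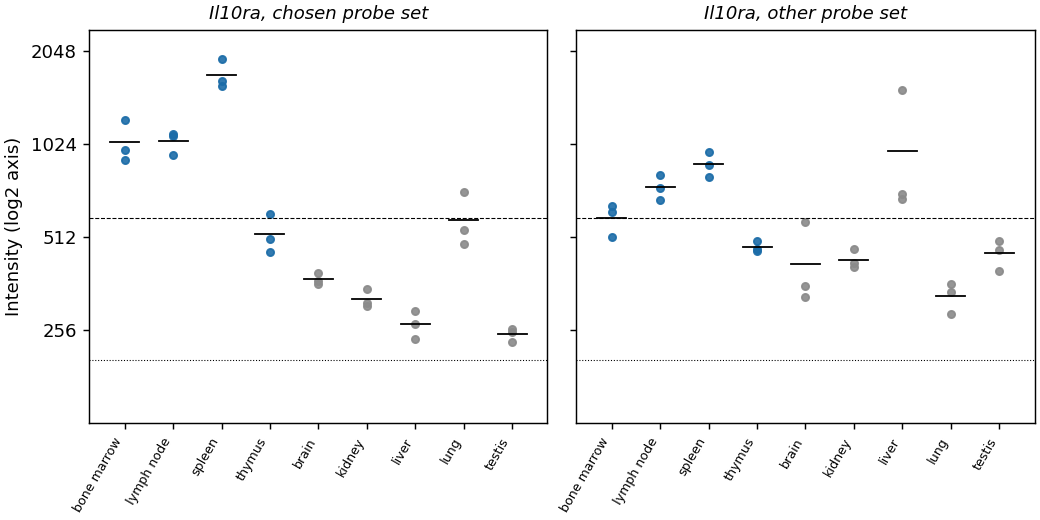
Intensity (log2 axis) of the chosen probe set of Il10ra (left) and of its other probe set (right) on each of the 3 arrays per tissue, lymphoid tissues in blue and organs in grey, with a bar at the mean; the dotted and dashed lines are the median (205.2) and 95th percentile (590.1) of the human probe sets. Liver is among the lowest tissues on the left and the highest on the right, with 1 array at 1534.3.

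Il16 encodes a chemoattractant for cells bearing CD4, cut from a larger precursor made by lymphocytes, and it was the called ligand with the widest span. Its intensity was 1442, 1181 and 1218 in thymus, 1281, 1239 and 1114 in lymph node, 1394, 1205 and 1008 in spleen and 627, 775 and 776 in bone marrow. In the organs it was 275, 317 and 257 in liver, 279, 259 and 262 in brain, 241, 257 and 211 in lung, 199.8, 236 and 181 in kidney and 217, 211 and 183 in testis. The groups did not overlap, and bone marrow was the lowest of the lymphoid tissues on every array. The span of the signals from thymus to testis was 2.65 (limma F test, adjusted p = 3.95e-17), and no fold is given because the testis mean (204 ± 18.2) was not above the human median. Thymus, lymph node and spleen did not differ beyond their spread from one to the next, spleen was above bone marrow by 1.65-fold (adjusted p = 7.45e-05), and bone marrow was above liver by 2.56-fold (adjusted p = 3.20e-09).

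Il15 encodes the growth factor of natural killer and memory T cells, which other cells present to them on their surface. It gave 318, 459 and 432 in lymph node, 270.2, 433 and 339 in bone marrow, 386, 299 and 297 in kidney, 240.4, 251 and 234 in spleen and 239, 223 and 194 in thymus. It gave 225, 230.2 and 214 in lung, 182, 153 and 137 in liver, 192, 156 and 107 in testis and 154, 118 and 159 in brain. No array reached 590.1, and kidney lay among the lymphoid tissues, so that the 2 kinds of tissue overlapped. The span of the signals from lymph node to brain was 1.48 (limma F test, adjusted p = 1.50e-07). Brain, liver and testis lay under the human median of 205.2 on every array, so no folds over them are given. All 9 called pairs set lymph node, bone marrow or kidney above brain, liver or testis. Their log2 differences ran from 1.05 (kidney over liver) to 1.48.

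Il5ra encodes the ligand-binding chain of the interleukin 5 receptor, known from eosinophils and some B cells. Spleen gave 744, 814 and 725, lymph node 770.4, 677 and 545, thymus 595, 518 and 659 and bone marrow 309, 396 and 376. The organs gave 449.7, 553 and 649 in brain, 488, 399 and 733 in lung, 567, 395 and 416 in kidney, 249.7, 422 and 384 in testis and 373, 257 and 341 in liver. Bone marrow lay among the lowest tissues, and the lymphoid and organ arrays overlapped widely. The span from spleen to liver was 1.25, or 2.38-fold (limma F test, adjusted p = 4.92e-05), and no neighbours in the order differed beyond their spread. The 4 called pairs were spleen over liver, testis (2.22-fold) and bone marrow (2.12-fold), and lymph node over liver (2.06-fold). With quantile normalization of the arrays the span was 0.92, under the size for a call.

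Il1a encodes interleukin 1 alpha, an inflammatory alarm signal released by damaged cells, and was the only called gene highest in liver. Liver gave 498, 416 and 455, kidney 315, 341 and 308, lymph node 280.2, 306 and 278, testis 306, 309.8 and 236 and spleen 292, 224 and 255. The rest gave 275, 229 and 229.8 in lung, 240.3, 257 and 215 in brain, 231, 241 and 233 in thymus and 285, 220.4 and 163 in bone marrow. The 3 liver arrays lay above all other arrays, and all arrays lay under 590.1. Liver was above kidney, the next in order, by 1.42-fold (adjusted p = 0.0103), and liver over bone marrow was the 1 called pair (2.10-fold, adjusted p = 1.46e-06). The span of 1.07 (limma F test, adjusted p = 1.83e-05) was just past the size for a call, and without bone marrow replicate 3 it was 0.95.

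**Figure D3:**
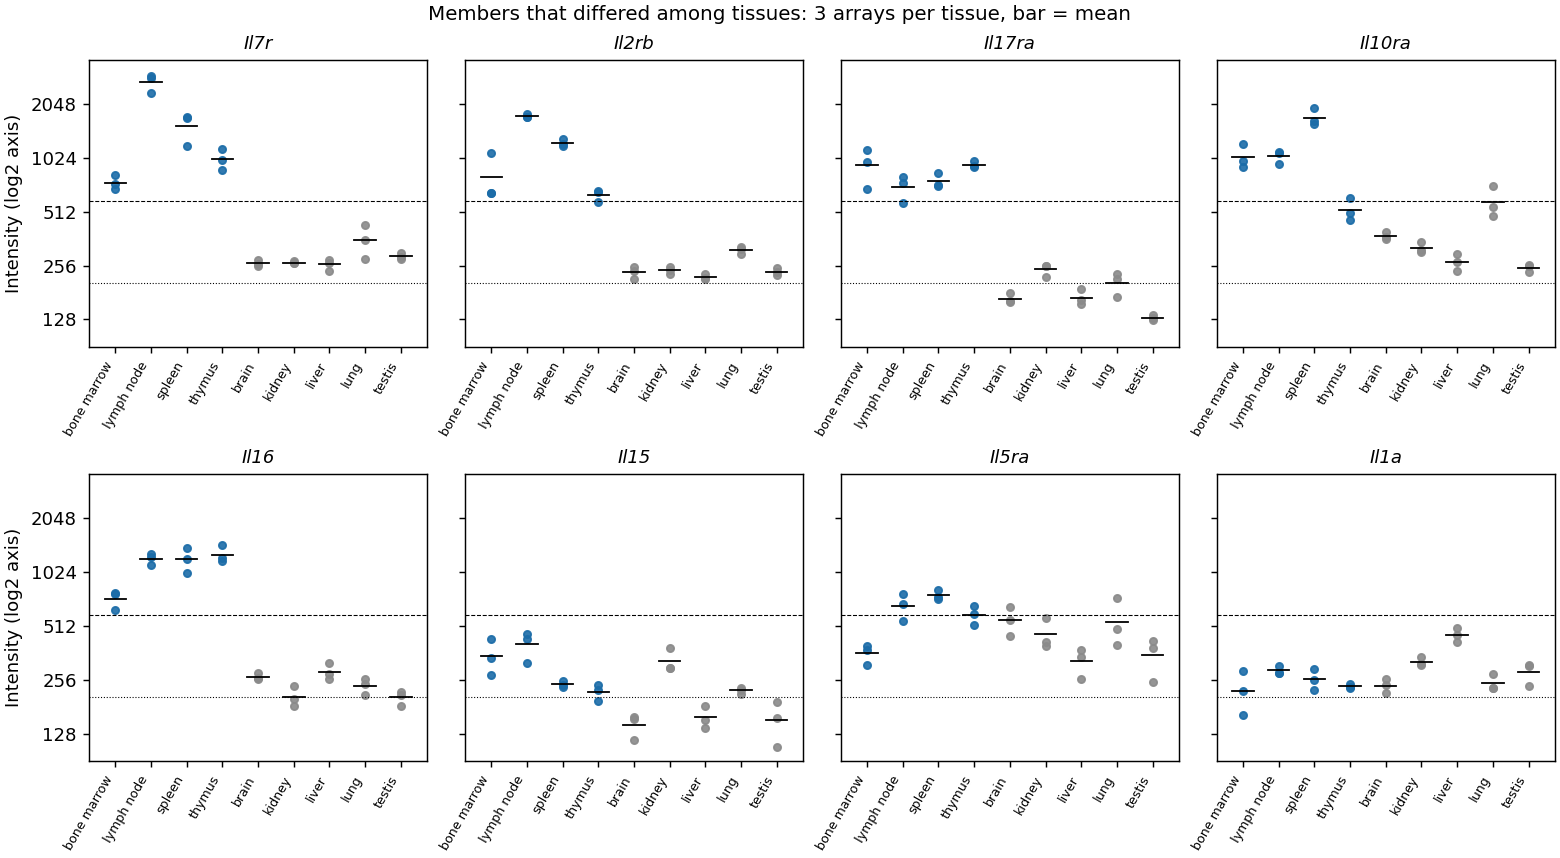
Intensity (log2 axis) of the 8 called genes on each of the 3 arrays per tissue, lymphoid tissues in blue and organs in grey, with a bar at the mean; the dotted and dashed lines are the median (205.2) and 95th percentile (590.1) of the human probe sets. In Il7r, Il2rb, Il17ra and Il16 all blue points lie above all grey points, and in the other 4 genes they overlap.

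The 9 receptors that were not called included Il6st, the signal-transducing chain gp130 shared by the interleukin 6 family. Il6st was measured at 530.8 to 1361 over the 27 arrays, and in 8 of 9 tissues all arrays lay above 590.1. Its span was 0.76, from 1275 ± 119.9 in bone marrow to 779.7 ± 247 in testis (limma F test, adjusted p = 0.00595). Il6ra, which binds interleukin 6 and pairs with gp130, lay between 175.7 and 277.3 on all arrays, with a span of 0.37.

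Il1r1, the signalling receptor of interleukin 1, lay closest under the size for a call. It gave 738, 767 and 572 in lymph node and 390.4, 347 and 300.1 in bone marrow, its highest and lowest tissues. The lymph node arrays overlapped 1 brain array at 604.6. The span was 0.9987 (limma F test, adjusted p = 0.000496), and it passed 1 when any one of bone marrow replicate 1 (1.09), bone marrow replicate 2 (1.005), brain replicate 2 (1.02) or lymph node replicate 3 (1.13) was left out.

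Il18rap, the accessory chain of the interleukin 18 receptor and a close neighbour of Il1r1 on chromosome 1, gave 329, 353 and 363 in bone marrow. These arrays lay above all others, the next being testis at 311.4, and the span was 0.62 (limma F test, adjusted p = 0.000336). Il2ra, the high-affinity chain that activated and regulatory T cells add to Il2rb, gave 442, 410.2 and 486 in testis, 468, 368 and 361 in thymus and 306, 331 and 279 in spleen. Its span was 0.55, with spleen lowest and testis highest, and no array passed 590.1. Thus of the 4 receptors of the common gamma chain family that were measured, Il7r and Il2rb were called and Il2ra and Il9r (span 0.48) were not.

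Il3ra, the binding chain of the interleukin 3 receptor, had a span of 0.62 that did not pass the test (adjusted p = 0.0868), with testis arrays at 405, 803 and 567. Both chains of the interleukin 12 receptor, Il12rb1 and Il12rb2, had spans of 0.43 and 0.35, with arrays between 115.9 and 384.7.

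The 14 ligands that were not called had all their arrays between 123.8 and 574.4, under the human 95th percentile, and 6 of them had a median array under the human median of 205.2. Their spans ran from 0.17 to 0.69. Il25, an inducer of type 2 immunity, had the smallest, at 134.6 to 186.4 over the 27 arrays (adjusted p = 0.792). Il1f5, the antagonist of the interleukin 36 receptor, followed with a span of 0.29. At these signals a low level of a ligand could not be told from non-specific hybridisation.

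Il7, the ligand of Il7r made by stromal cells, had the widest span of these 14 ligands, 0.69 (adjusted p = 0.00137). It gave 238, 215 and 214 in thymus, 207, 198 and 238 in liver and 134, 157 and 124 in lung. Thymus and liver arrays overlapped each other and lay above the lung arrays.

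Il3, Il4, Il5 and Il13 lie near each other on chromosome 11 in RefSeq, with no protein-coding gene between Il4 and Il13. These are the type 2 helper T cell cytokines and a growth factor of mast cells and basophils. None was called, their spans ran from 0.36 to 0.61, and their arrays lay between 197.9 and 574.4. Il1a and Il1b are likewise adjacent on chromosome 2, and Il1b had a span of 0.40 that did not pass the test (adjusted p = 0.0667), with its lowest mean in thymus and its highest in bone marrow, where Il1a was lowest.

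The second comparison set the mean of the 4 lymphoid tissues against that of the 5 organs. Of the 31 genes 5 were called higher, among 10.8% of all genes called higher, and 0 were called lower, among 2.62% of all genes called lower (limma, adjusted p under 0.05 and a log2 difference of at least 1). Il7r differed by 2.22 ± 0.07 (SE) on the log2 scale, or 4.66-fold (adjusted p = 4.93e-19). Il17ra differed by 2.19 ± 0.07 (adjusted p = 1.07e-18), and no fold is given because its organ mean was not above the human median. Il2rb differed by 2.04 ± 0.06, or 4.11-fold (adjusted p = 3.97e-19). The ligand Il16 differed by 2.18 ± 0.06, or 4.54-fold (adjusted p = 1.49e-19).

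Il10ra differed by 1.54 ± 0.06, or 2.91-fold (adjusted p = 2.31e-16). With its 2 probe sets averaged the difference was 1.004, or 2.01-fold (adjusted p = 8.32e-12), which is at the size for a call. All 12 lymphoid arrays lay above all 15 organ arrays in Il7r, Il2rb, Il17ra and Il16, a pattern that 2.97% of all genes had. In these 4 genes all 20 pairs of a lymphoid tissue with an organ were called, against 14 of 20 in Il10ra.

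The remaining 26 genes centred near 0, and the median difference was 0.05 over the 31 genes and -0.05 over all genes. Of these, 10 passed the adjusted p and not the size, 5 of them higher in lymphoid tissues and 5 lower. The higher ones were Il15 (0.63 ± 0.09, adjusted p = 1.51e-06), Il5ra (0.42 ± 0.10, 1.34-fold, adjusted p = 0.000932), Il6st (0.31 ± 0.09, 1.24-fold, adjusted p = 0.00283), Il12a (0.11) and Il12rb1 (0.11). The lower ones were Il5 (-0.28 ± 0.07, adjusted p = 0.000814), Il1a (-0.27 ± 0.07, adjusted p = 0.00162), Il17a (-0.24 ± 0.05, adjusted p = 0.000116), Il1f5 (-0.13) and Il3 (-0.11).

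**Figure D4:**
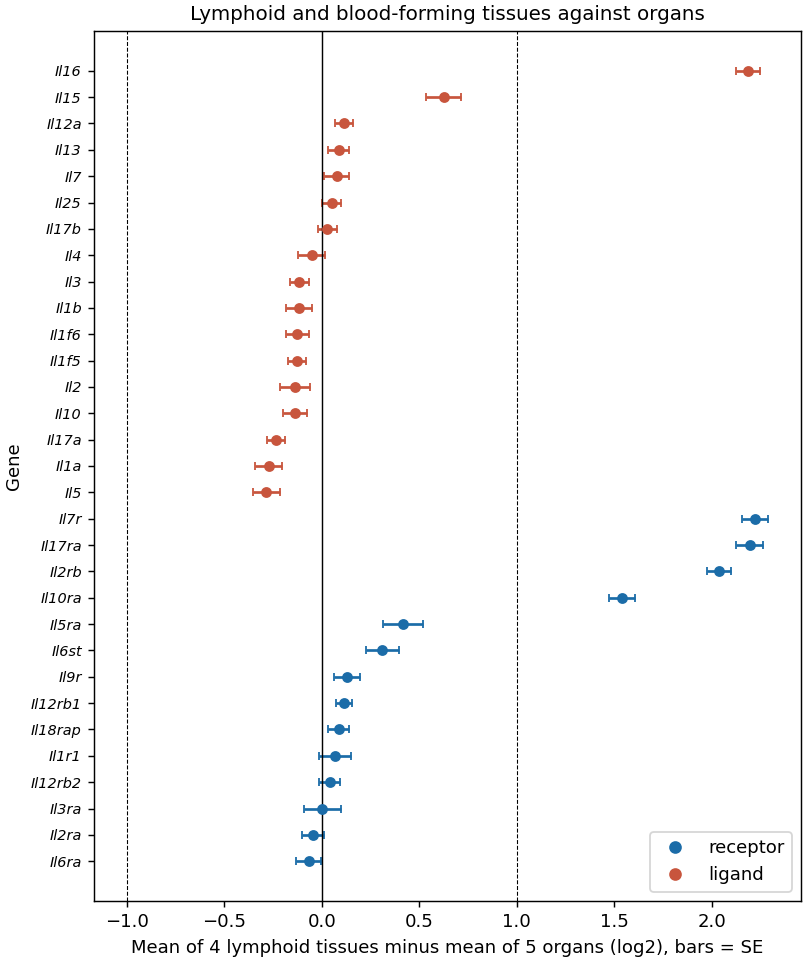
Mean log2 intensity of the 4 lymphoid tissues minus that of the 5 organs (horizontal axis, bars are SE) for each of the 31 genes, receptors in blue and ligands in red, with dashed lines at the size for a call. Il7r, Il17ra, Il2rb and Il10ra among the receptors and Il16 among the ligands lie past 1, and the other 26 genes lie between -0.28 and 0.63.

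The tissue samples differ in the cells they hold, and in bulk RNA fewer cells of a type and less RNA per cell cannot be told apart. Few markers of blood cells were on the array, and all 3 of the 13 listed T cell markers that were measured (Cd2, Ccr7 and Ccr9) were called higher in lymphoid tissues. Their summed intensity was 1106 to 5369.8 on lymphoid arrays and 615.9 to 1051 on organ arrays. Of 4 B cell markers 3 were higher (summed 5271 to 8981 against 2360.0 to 5899), and of 5 macrophage and monocyte markers 4 were higher (1149 to 6482 against 346 to 2135). Of 3 natural killer markers 1 was higher (Klrd1; summed 921.3 to 1856 against 798.6 to 1043), and of 6 neutrophil markers 1 was higher (Ltf; summed 2377 to 20876 against 2131 to 3506). The high neutrophil sums were those of bone marrow (mean 19380). The mean sum was 2533 in thymus, 3267 in lymph node and 3728 in spleen, beside 3099 in lung. Of 7 endothelial markers 1 was higher (Icam2) and 1 lower (Tek), with their highest sum in lung. The part of cell content in the differences of Il7r, Il2rb, Il17ra, Il10ra and Il16 was not tested. Marker genes of hepatocytes, lung epithelium, brain and lymph node stroma each had their highest sum in the tissue of that name, and no marker value was 0. By single gene the exceptions were the brain marker St8sia3, highest in testis, and the lymph node stroma marker Madcam1, highest in spleen and not called by the F test. The brain markers Ncan and Bcan were highest in brain and not called either.

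The third comparison set each tissue against the mean of the other 8. It made 14 calls of a gene higher and 16 of a gene lower, all of them among Il7r, Il2rb, Il17ra, Il10ra and Il16. All 5 were higher in lymph node, among 11% of all genes called higher there, and in spleen, among 9.77%. The largest was Il7r in lymph node, 5.85-fold above the mean of the rest (2.55 ± 0.11 SE, adjusted p = 8.51e-16), followed by Il2rb there (2.16 ± 0.10, 4.48-fold, adjusted p = 2.38e-15) and Il10ra in spleen (1.85 ± 0.10, 3.61-fold, adjusted p = 1.94e-13).

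In thymus, where 5.41% of all genes were called higher, the 2 calls were Il16 (1.64 ± 0.10, 3.13-fold, adjusted p = 1.06e-12) and Il17ra (1.59 ± 0.11, 3.01-fold, adjusted p = 2.67e-11). In bone marrow, with 5.76% of all genes, they were Il17ra (1.54 ± 0.11, 2.92-fold, adjusted p = 3.24e-11) and Il10ra (1.03 ± 0.10, 2.04-fold, adjusted p = 8.48e-09). The Il10ra call in bone marrow was lost without bone marrow replicate 3 (0.90). Il10ra in thymus was level with the mean of the rest (-0.08, adjusted p = 0.560).

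In testis all 5 genes were called lower, among 13.3% of all genes, with Il17ra furthest down (-1.61 ± 0.11, adjusted p = 1.04e-11). In liver 4 were lower (Il7r, Il2rb, Il17ra and Il10ra), among 8.9% of all genes. In brain 3 were lower (Il7r, Il2rb and Il17ra), among 10.3%, and in kidney 3 (Il7r, Il2rb and Il16), among 6.11%. In lung Il16 alone was lower (-1.10 ± 0.10, adjusted p = 8.86e-10), among 1.05% of all genes.

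The size was also measured from the median of the 8 in place of their mean, with the adjusted p of the contrast with the mean kept. By that measure 9 calls were lower and 19 higher, with 8 lower calls lost. Those were Il7r in brain (-0.95), kidney (-0.93), liver (-0.97) and testis (-0.82), all of its lower calls, Il2rb in brain (-0.92), kidney (-0.89) and testis (-0.91), and Il16 in lung (-0.94). The 1 lower call gained was Il17ra in lung (-1.01), and the 5 higher calls gained were Il7r and Il2rb in both bone marrow and thymus, and Il16 in bone marrow. Averaging the 2 probe sets of Il10ra ended its calls in bone marrow (0.58), lymph node (0.77), liver (-0.17) and testis (-0.79), and its call in spleen held (1.31). With quantile normalization the lymph node calls of Il17ra (0.88) and Il10ra (0.71) were lost, as were those of Il7r in testis (-0.84) and of Il2rb in brain (-0.94), kidney (-0.96) and testis (-0.90).

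The 5 genes were also compared among the 4 lymphoid tissues. Of the 6 pairs of lymphoid tissues 3 were called for Il7r, 2 for Il2rb, 2 for Il10ra and 0 for both Il17ra and Il16. The widest difference between lymphoid tissues was 3.64-fold for Il7r (lymph node over bone marrow), 2.77-fold for Il2rb (lymph node over thymus) and 3.29-fold for Il10ra (spleen over thymus). It was 1.35-fold for Il17ra and 1.76-fold for Il16. Thymus lay under the other 3 lymphoid tissues on every array for Il10ra, while for Il17ra, Il16 and Il2rb it did not differ beyond its spread from the next lymphoid tissue in the order.

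Over the 9 tissue means, Il7r and Il2rb were most alike in pattern, with r = 0.987. After Il2rb, the genes most like Il7r among all 573 were Ccl5, a chemokine of activated T cells (r = 0.975), and Ccr7, the receptor that guides lymphocytes into lymph nodes (r = 0.974). After Il7r, those most like Il2rb were the integrin chain Itgb7 (0.984) and lymphotoxin beta, Ltb (0.971). Those most like Il17ra were the activation marker Cd69 (0.969), Ltb (0.953) and Selplg, the P-selectin ligand (0.950). These correlations describe 9 points that come from the same arrays and the same split between lymphoid tissues and organs.

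Of 58 other cytokine and cytokine signalling genes listed as the wider pathway, 21 were measured. By the F test 11 of the 21 were called, beside 50.1% of all genes, and against the organs 2 were higher in lymphoid tissues, beside 10.8% of all genes, and 0 lower. Both counts lie near those shares. The 2 were Ifngr1, the ligand-binding chain of the interferon gamma receptor (1.89 ± 0.10, 3.71-fold, adjusted p = 1.02e-14), and Flt3l, a growth factor of dendritic cell and lymphocyte precursors (1.32 ± 0.06, 2.49-fold, adjusted p = 9.42e-16). The receptors Lifr and Osmr, which signal with Il6st, were called by the F test with spans of 3.83 and 3.62 and were highest in liver (1227 ± 417, SD, n = 3) and lung (954.4 ± 55.9). Their shared chain Il6st had a span of 0.76 over the same tissues.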

How the data were processed

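Biotin-labelled RNA of 27 samples from 9 tissues was measured on a custom 1-colour Affymetrix array, per the labels. The deposited intensities are linear, 1 per probe set and array, for 1813 probe sets. How the authors summarised, background-corrected and scaled them is not given in the sources used here. Gene names came from the platform annotation (1563 probe sets with 1 symbol, 2 with several, 248 with none), and 702 matched 573 mouse genes in RefSeq.

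Intensities under 16 were raised to 16 (51 mouse values, 0 of the genes described) and log2 taken. limma 3.58.1 (R 4.3.3) fitted 1 coefficient per tissue over 27 arrays, with Benjamini-Hochberg adjustment over 573 genes within each contrast; folds are powers of 2 of log2 differences. Called genes are given on every array, the others by range, with the brightest and the least variable named. The script was tested on simulated data. The genes, lists and tests were chosen with earlier results of these data known. Alternatives were 2 scalings, a filter, a floor of 64, averaged probe sets, other variance settings, the replicate number as a block, another reference and leaving out each array.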

Additional observations from a re-analysis of the deposited data

Results flagged for a closer look

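One signal stood out in probe sets that the comparisons did not use. The human IL17C probe set, one of 44 human interleukin and interleukin receptor probe sets on the array, read between 641 and 1642 on the 27 arrays of mouse RNA. It was the only one of the 44 with every array above the human 95th percentile of 590.1. Its tissue means spanned 0.45 on the log2 scale and were highest in bone marrow, so it was bright in all 9 tissues. Whether it detected a mouse transcript was not tested.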

How the results depend on the processing

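The count of lower tissue calls among the interleukin genes was 16. It was 9 when each tissue was measured from the median of the other 8. That alternative changed the reference of the difference alone and kept the adjusted p of the contrast with the mean. The counts of members called by the F test, higher and lower against the other 8 tissues, and higher and lower in lymphoid tissues were 8, 14, 16, 5 and 0, and the fit with a replicate block gave the same 8, 14, 16, 5 and 0. Arrays of the same number in different tissues did not deviate together (median r = 0.004 over 108 pairs, from -0.372 to 0.553, against 0.019 over 216 pairs of different numbers). That check looks only at shared deviations, so it cannot exclude that samples of the same number came from the same mouse. Leaving out each of the 27 arrays gave 7 to 9 genes by the F test, 13 to 15 tissue calls higher, 16 lower, and 5 and 0 lymphoid calls. By the F test, 7 of the 8 genes remained with quantile normalization, where Il5ra was lost and Il3ra gained, and 7 with the dimmest genes left out (382 genes and 20 members kept), where Il15 was not tested. Of 1525 values of 44 named results under the alternatives, 1497 kept their side of the threshold, 24 fell under it, 4 passed it and 0 changed direction. Median centring also lost Il10ra in lymph node (0.95), Il7r in testis (-0.98) and Il2rb in testis (-0.99). Scaling shifted the median difference of all genes by over 0.1 in 5 tissues, most with quantile normalization in testis (0.15) and lymph node (-0.13). No depth or detection limit is known for these intensities, so low signals are bounded only by the human probe sets.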

Other observations

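Besides Il10ra, 5 of the genes had a second, dimmer probe set, and its tissue means followed those of the chosen one with r = 0.50 in Il1r1, 0.45 in Il12rb1, 0.15 in Il4, -0.36 in Il1f5 and -0.59 in Il2. The second probe set of Il1r1 spanned 0.37 on the log2 scale, against 0.9987 for the chosen one, and was highest in liver (492.8 ± 160.1, SD, n = 3) and not in lymph node (428.0). In the other 4 genes neither probe set spanned 1.

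The human probe sets of the 5 genes that were higher in lymphoid tissues did not follow them. Over the 9 tissue means r was -0.51 for IL7R, -0.02 for IL2RB, 0.11 for IL17RA, -0.31 for IL10RA and -0.70 for IL16, and their lymphoid differences lay between -0.27 (IL7R) and 0.10 (IL17RA).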
